A study of Mus musculus with 10 samples.

Results

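Liver metastases of small cell lung cancer were compared between mice of the genotype RPR2;Nfibf/f (Nfib-floxed below) and RPR2 mice. All 4 metastasis libraries of the series entered the comparison, and its members were the genes whose mean over those libraries reached 1 TPM (transcript share, scaled so that each library has the same total), 14889 of the 35288 genes in the table. The Nfib-floxed metastases came from the mice JHK1398 and JHK1399 and the RPR2 metastases from JHK1373 and JHK1394, and values are given in that order of mice throughout. The series also holds lung tumors of the same 2 genotypes, 3 of each, from these 4 mice and 2 more. Tumors were dissected by eye at morbidity and polyA RNA was sequenced, so each library holds the RNA of tumor and of neighboring cells.

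RPR2 is the name of a mouse model in which floxed Rb1, Trp53 and Rbl2, the genes of the retinoblastoma protein, p53 and p130, are deleted in lung cells by Cre, and both genotypes share it. The Nfib-floxed mice carry floxed Nfib alleles in addition. The promoter that drives Cre, the ages of the mice and the deletion efficiency are not stated in what was used here. Small cell lung cancer is a neuroendocrine tumor that spreads early, often to the liver. NFIB belongs to the nuclear factor I (NFI) family of transcription factors, which binds DNA as a dimer and opens chromatin, and its gene is often amplified or raised in metastases of such mouse models. Epithelial cells are held together by E-cadherin junctions, claudins and keratin filaments, whose genes are repressed by factors of the SNAI and ZEB families through E-boxes in their promoters.

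The tumor identity of the libraries was checked first. Insm1, a neuroendocrine transcription factor, had 195 and 339 TPM in the Nfib-floxed metastases and 163 and 258 TPM in the RPR2 metastases. Chga, the gene of the granule protein chromogranin A, had 235 and 726 TPM in Nfib-floxed metastases and 126 and 369 TPM in RPR2 metastases, and Neurod1, which marks a subtype of this cancer, was at most 0.0804 TPM in all 4. All 4 libraries thus carried the neuroendocrine markers. The log2(TPM + 1) values correlated across genes at 0.907 between the Nfib-floxed metastases, at 0.924 between the RPR2 metastases and at 0.833 to 0.858 between the genotypes. The highest correlation of the Nfib-floxed metastasis of JHK1398, 0.932, was with the RPR2 lung tumor of JHK1373. The Nfib-floxed metastasis of JHK1399 correlated at 0.916 with that tumor, with its own lung tumor and with the Nfib-floxed lung tumor of JHK997. Both Nfib-floxed metastases were thus closer to some RPR2 lung tumors than to each other. Results are also given without the metastasis of JHK1398, and calls without each other metastasis. Tests used limma on log2(TPM + 1) in a model of the 4 genotype and tissue groups over the 10 libraries, with Benjamini-Hochberg adjustment over the 14889 genes. A gene passed at an adjusted p under 0.05, and log2 differences are Nfib-floxed minus RPR2 with their SE. They understate the change of genes with low values. The spread behind the p-values was pooled over the 4 groups, so the lung tumors entered it too. With 2 metastases a genotype, the p-values rest on the spread within these few tumor groups. Fits that left out 1 metastasis kept the lung tumors.

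Nfib itself had 46.1 and 41.3 TPM in the Nfib-floxed metastases, against 62.8 and 643 TPM in the RPR2 metastases. The groups did not overlap, but the higher mean of the RPR2 group rested on the metastasis of JHK1394. The difference did not pass the test (log2 difference -2.18 ± 0.91, adjusted p = 0.296), and an exact two-sided permutation test of the TPM values gave p = 0.333, the smallest that 2 against 2 allows. Gene-level TPM does not separate the floxed exons from the rest of the gene. Nfix, a family member, had 2.11 and 20.4 TPM in Nfib-floxed metastases and 41.4 and 172 TPM in RPR2 metastases (log2 difference -3.39 ± 1.04, adjusted p = 0.131). Nfia and Nfic overlapped between the groups, as did Rbl2 and Trp53, the floxed genes shared by all mice, while Rb1 had 94.0 and 131 TPM in Nfib-floxed metastases and 78.3 and 89.8 TPM in RPR2 metastases, an adjusted p of 0.808.

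In the metastases, 406 genes passed the test, which is 2.73% of the genes tested. Of these, 198 (1.33%) rose and 208 (1.40%) fell in Nfib-floxed metastases. Genes of epithelial junctions, epithelial splicing and membrane proteases were among the rises, and genes of neurons, axon guidance and liver cells among the falls. Over all genes, 46.5% had values that did not overlap between the groups, 23.9% higher and 22.6% lower in Nfib-floxed metastases, so a lack of overlap by itself was common. It held for all 406 genes that passed, so it adds nothing to a call. A gene near absent from 1 genotype enters the tested genes only through the other, so counts over the tested members of a list describe them and support nothing further. Without the Nfib-floxed metastasis of JHK1398, 130 genes rose and 45 fell, and without that of JHK1399, 96 rose and 295 fell. Without the RPR2 metastasis of JHK1373, 108 rose and 192 fell, and without that of JHK1394, 82 rose and 86 fell. A fit of the 4 metastases alone, which takes no spread from the lung tumors, called 53 genes, 33 up and 20 down. Of the 95 called genes that were named by rule, 62 lost their calls in that fit. A set of 86 genes passed in the comparison and again in each of the 4 fits that left out 1 metastasis, and 57 of them were rises and 29 falls.

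The largest rise was that of R3hdml, a gene of a secreted protein on chr2:163492318-163502612 (GRCm38, as for all positions below). It had 234 and 319 TPM in the Nfib-floxed metastases, against 2.53 and 3.93 TPM in the RPR2 metastases. The log2 difference was 6.04 ± 0.36 (adjusted p = 9.32e-05). The 6 lung tumors, at 181 to 357 TPM in Nfib-floxed and 209 to 230 TPM in RPR2 mice, lay near the Nfib-floxed metastases, and the RPR2 metastases were the low libraries.

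**Figure D1:**
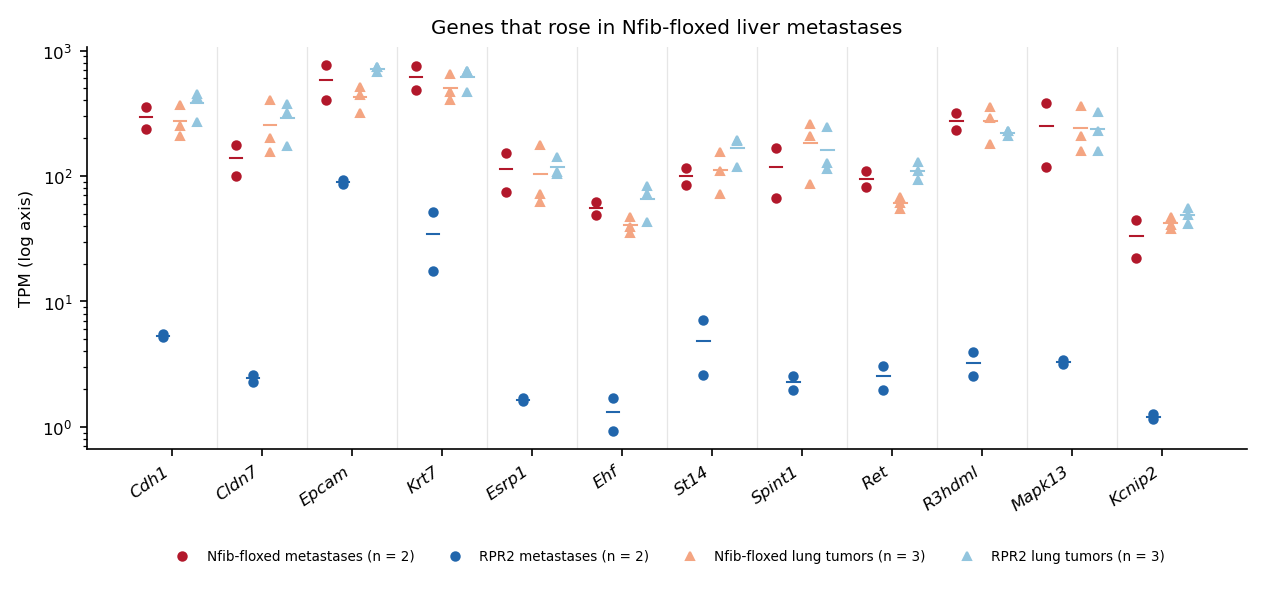
TPM per library on a log axis for 12 genes that rose, with points for libraries and short lines for group means: Nfib-floxed metastases (2, dark red circles), RPR2 metastases (2, dark blue circles), Nfib-floxed lung tumors (3, pale red triangles) and RPR2 lung tumors (3, pale blue triangles). In all 12 genes the RPR2 metastases lie below the other 8 libraries, as for Cdh1 at 5.46 and 5.20 TPM.

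Cdh1, the gene of E-cadherin on chr8:106603351-106670246, had 236 and 352 TPM in the Nfib-floxed metastases, against 5.46 and 5.20 TPM in the RPR2 metastases. This was a log2 difference of 5.51 ± 0.37 (adjusted p = 0.000121). Among 15 tested genes of adherens junctions and desmosomes, 5 rose and none fell, with a median log2 difference of 0.67, against -0.001 over all genes tested. Dsp, the gene of desmoplakin, had 23.1 and 56.8 TPM in Nfib-floxed metastases and 2.98 and 2.91 TPM in RPR2 metastases. Epcam, an epithelial adhesion molecule, had 407 and 763 TPM in Nfib-floxed metastases and 85.8 and 93.2 TPM in RPR2 metastases. The plaque genes Ppl (log2 difference 2.66 ± 0.49) and Pkp3 (2.40 ± 0.55) made up the rest of the rises. The catenin gene Ctnnb1 was higher too, at 1047 and 937 TPM in Nfib-floxed metastases and 583 and 663 TPM in RPR2 metastases, but did not pass. Ctnna1 and Ctnnd1, each with a log2 difference of 0.48, did not pass either. Cdh1, Dsp and Epcam passed in every fit that left out 1 metastasis, while Ppl and Pkp3 passed only in the fit without JHK1398 (adjusted p without JHK1399, JHK1373 and JHK1394 of 0.0816, 0.0856 and 0.0963 for Ppl and 0.263, 0.109 and 0.26 for Pkp3).

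Tight junction and polarity genes rose in a like way, with 9 of 23 tested members up, none down and a median log2 difference of 1.54. Claudins are the membrane proteins that seal the space between epithelial cells. Cldn7 (chr11:69964779-69967885) had 101 and 178 TPM in Nfib-floxed metastases, against 2.61 and 2.30 TPM in RPR2 metastases, a log2 difference of 5.29 ± 0.51 (adjusted p = 0.000941). Ap1m2, a subunit of the epithelial adaptor complex that sorts proteins to the basolateral membrane, had 33.1 and 67.7 TPM in Nfib-floxed metastases and 0.932 and 0.624 TPM in RPR2 metastases. Rab25, a GTPase of apical recycling, had 34.4 and 53.2 TPM in Nfib-floxed metastases and 1.04 and 1.62 TPM in RPR2 metastases. In each of these genes both Nfib-floxed values lay far above both RPR2 values. Cldn6, Cldn3, Myo5b, Crb3, Ocln and Llgl2 also rose. The scaffold gene Tjp1 overlapped between the groups, at 46.8 and 53.7 TPM in Nfib-floxed metastases and 44.0 and 47.3 TPM in RPR2 metastases. Cldn7, Ap1m2 and Rab25 kept their calls in all 4 fits that left out 1 metastasis. The list had 4, 4, 5 and 3 rises without JHK1398, JHK1399, JHK1373 and JHK1394. Cldn6 and Cldn3 passed in none of these fits, with adjusted p of 0.127 to 0.195 for Cldn6 and 0.0673 to 0.24 for Cldn3.

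Of 9 tested keratin genes, 3 rose and none fell. Krt7, a simple epithelial keratin, had 481 and 746 TPM in Nfib-floxed metastases, against 17.5 and 51.6 TPM in RPR2 metastases (log2 difference 4.26 ± 0.48, adjusted p = 0.00178). Its partner filaments Krt8 and Krt18 also rose, with Krt8 at 540 and 1026 TPM in Nfib-floxed metastases and 74.1 and 107 TPM in RPR2 metastases. Krt18 passed only in the comparison and in the fit without JHK1398, with adjusted p of 0.0979, 0.103 and 0.0996 without JHK1399, JHK1373 and JHK1394. Krt19, also a marker of bile duct cells, had 1.26 and 38.2 TPM in Nfib-floxed metastases and 0.569 and 3.53 TPM in RPR2 metastases and did not pass.

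The regulators of the epithelial state included 5 rises among 13 tested genes and no fall, with a median log2 difference of 2.08. Esrp1 encodes a splicing factor that sets epithelial isoforms and lies on chr4:11331933-11386783. It had 74.9 and 154 TPM in Nfib-floxed metastases, against 1.60 and 1.69 TPM in RPR2 metastases, a log2 difference of 5.36 ± 0.51 (adjusted p = 0.000941). Its paralog Esrp2 had 29.6 and 38.3 TPM in Nfib-floxed metastases and 3.99 and 4.82 TPM in RPR2 metastases. Ehf, an ETS factor of epithelia, had 48.7 and 62.1 TPM in Nfib-floxed metastases and 1.69 and 0.929 TPM in RPR2 metastases. These 3 genes passed in all 4 fits that left out 1 metastasis. Ovol2 (log2 difference 2.60 ± 0.51) also rose, but did not pass without JHK1399 (adjusted p = 0.115), JHK1373 (0.141) or JHK1394 (0.0748). Grhl2, which activates Cdh1 in epithelia, had 9.68 and 0.696 TPM in Nfib-floxed metastases and 3.80 and 1.31 TPM in RPR2 metastases, so it overlapped.

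Repressors and genes of the mesenchymal state were mostly lower without passing. Snai2, a repressor of Cdh1, fell to 0.507 and 0.758 TPM in Nfib-floxed metastases, against 9.99 and 9.80 TPM in RPR2 metastases (log2 difference -2.74 ± 0.53, adjusted p = 0.0252), a call that was lost in each fit that left out 1 metastasis (adjusted p of 0.0627 to 0.0989). Cdh11, a mesenchymal cadherin, fell to 0.0807 and 0.184 TPM in Nfib-floxed metastases, against 6.15 and 12.6 TPM in RPR2 metastases, and kept its call in all 4 fits. The other 14 of 16 tested members did not pass, and the median of the list was -0.49. Zeb1 had 20.2 and 21.3 TPM in Nfib-floxed metastases and 39.6 and 43.7 TPM in RPR2 metastases (adjusted p = 0.493). Zeb2, Snai1, Vim and Cdh2 had adjusted p of 0.482 to 0.956, and Vim had 30.6 and 61.6 TPM in Nfib-floxed metastases and 46.4 and 68.9 TPM in RPR2 metastases.

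Serine proteases anchored in the epithelial membrane and the inhibitors that act on them rose together, with 5 of 6 tested members up, none down and a median log2 difference of 3.83. St14, the gene of matriptase, had 84.6 and 117 TPM in Nfib-floxed metastases, against 2.59 and 7.08 TPM in RPR2 metastases. Spint1, the gene of its inhibitor HAI-1, had 67.4 and 167 TPM in Nfib-floxed metastases and 1.97 and 2.56 TPM in RPR2 metastases. The proteases Tmprss4 (log2 difference 4.71 ± 0.37) and Prss8, the gene of prostasin (3.43 ± 0.43), rose as well. Spint2 rose by less (2.30 ± 0.43) and passed in none of the fits that left out 1 metastasis, with adjusted p of 0.0693 to 0.121. The member that went the other way, Hpn, is a liver protease with 0.515 and 7.33 TPM in Nfib-floxed metastases and 23.3 and 25.9 TPM in RPR2 metastases, and it did not pass.

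The stretches before the transcription start of the called genes of these epithelial lists were read from the RefSeq promoter table (GRCm38.p6, 250 bases before the start). The table matched 10919 of 14876 tested symbols, 144 of the 198 that rose and 162 of the 208 that fell. Promoters are shown for the 5 matched genes with the largest absolute changes in the regulator, adherens junction, tight junction and protease lists. The keratin list was not part of this choice. Each of the 5 rose, and they differ in the E-boxes they hold. Capitals mark the E-box CAGGTG or its reverse complement CACCTG, the letters that SNAI and ZEB factors bind, and the NFI motif TTGGCA or TGCCAA, searched on both strands. The 2 motifs share no overlapping match here. Cldn7 has 2 starts in the table, and the first of its stretches, the first printed below, holds neither motif.
Cldn7, chr11:69964529-69964778, plus strand: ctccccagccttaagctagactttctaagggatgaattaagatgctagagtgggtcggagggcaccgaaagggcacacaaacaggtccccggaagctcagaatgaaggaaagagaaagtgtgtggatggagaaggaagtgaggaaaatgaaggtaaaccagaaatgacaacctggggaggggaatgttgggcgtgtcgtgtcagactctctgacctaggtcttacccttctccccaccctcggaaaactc
Cldn7, chr11:69965171-69965420, plus strand: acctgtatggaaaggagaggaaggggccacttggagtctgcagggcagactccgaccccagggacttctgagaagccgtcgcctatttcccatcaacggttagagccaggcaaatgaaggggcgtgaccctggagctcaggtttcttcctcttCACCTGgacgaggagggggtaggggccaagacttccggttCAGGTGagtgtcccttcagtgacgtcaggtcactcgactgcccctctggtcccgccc
Spint1, chr2:119237110-119237359, plus strand: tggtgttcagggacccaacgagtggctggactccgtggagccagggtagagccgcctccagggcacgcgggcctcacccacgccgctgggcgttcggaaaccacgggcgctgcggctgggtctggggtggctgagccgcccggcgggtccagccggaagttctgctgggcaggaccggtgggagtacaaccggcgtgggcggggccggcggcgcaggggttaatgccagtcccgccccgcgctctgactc
Ap1m2, chr9:21312334-21312583, minus strand: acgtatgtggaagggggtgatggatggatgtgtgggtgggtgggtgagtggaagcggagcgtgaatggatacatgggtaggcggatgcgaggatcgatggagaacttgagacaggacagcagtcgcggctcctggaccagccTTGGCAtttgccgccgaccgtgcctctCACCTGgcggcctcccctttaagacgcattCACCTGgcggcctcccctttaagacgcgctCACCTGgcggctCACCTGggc
Rab25, chr3:88548280-88548529, minus strand: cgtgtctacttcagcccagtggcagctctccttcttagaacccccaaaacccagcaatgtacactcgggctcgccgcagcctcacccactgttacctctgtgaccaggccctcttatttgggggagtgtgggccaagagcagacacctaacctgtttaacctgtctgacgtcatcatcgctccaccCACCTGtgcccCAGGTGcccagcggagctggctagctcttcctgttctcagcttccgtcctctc
Cldn6, chr17:23679115-23679364, plus strand: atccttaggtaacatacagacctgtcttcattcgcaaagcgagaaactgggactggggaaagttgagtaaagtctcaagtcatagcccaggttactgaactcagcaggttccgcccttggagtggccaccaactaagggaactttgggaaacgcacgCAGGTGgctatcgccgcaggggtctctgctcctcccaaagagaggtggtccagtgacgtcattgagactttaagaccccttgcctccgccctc

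The Ap1m2 stretch held 4 E-boxes in the last 81 bases before the start, with the NFI motif at 108 bases before it. The Rab25 stretch held 2 E-boxes at 64 and 53 bases before the start, the second Cldn7 stretch 2 at 97 and 57 bases, and the Cldn6 stretch 1 at 93 bases. The Spint1 stretch held neither motif. An E-box CAGGTG stood in the 250 bases of 37.5% of the matched genes that rose and 17.9% of those that fell, against 19.1% of all tested genes matched. At least 2 E-boxes in 1 promoter were found for 13.2% of the rises and 3.1% of the falls, against 2.4% of all. The NFI motif TTGGCA stood in 17.4% of the rises and 21.0% of the falls, against 12.1% of all. These shares describe letters in a window and were not tested.

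Genes of the epithelial surface included 7 rises among 16 tested and no fall. Tspan1, a tetraspanin, had 60.4 and 102 TPM in Nfib-floxed metastases, against 1.55 and 2.75 TPM in RPR2 metastases. Tmc4 (log2 difference 4.57 ± 0.51), Tmem30b, a flippase subunit (4.26 ± 0.61), and Cdcp1 (3.32 ± 0.46) rose and passed in all 4 fits that left out 1 metastasis. The mucin gene Muc1 had 13.0 and 46.3 TPM in Nfib-floxed metastases and 0.623 and 3.25 TPM in RPR2 metastases and passed in none of those fits (adjusted p of 0.0617 to 0.29).

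Bile duct cells of the liver share epithelial genes with this set. Of 16 tested bile duct markers, 6 rose and none fell, and the 6 were Krt7, Epcam, St14, Muc1, Cldn3 and Cldn7, which also stand in the epithelial lists. No other tested marker of bile duct cells passed. Sox9, their defining transcription factor, had 0.0822 and 0.822 TPM in Nfib-floxed metastases and 1.79 and 1.64 TPM in RPR2 metastases. Spp1 had 21.7 and 335 TPM in Nfib-floxed metastases and 602 and 435 TPM in RPR2 metastases.

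Signaling genes with large rises stood alone within their lists. Ret, the receptor tyrosine kinase for GDNF ligands on chr6:118151745-118197718, had 109 and 81.3 TPM in Nfib-floxed metastases, against 3.09 and 1.96 TPM in RPR2 metastases. The log2 difference was 4.77 ± 0.33 (adjusted p = 0.000121), and Ret was the single call among 23 tested receptor tyrosine kinase and ligand genes. Mapk13, the gene of the p38 delta kinase, had 117 and 381 TPM in Nfib-floxed metastases, against 3.18 and 3.39 TPM in RPR2 metastases, and was the single call among 19 regulators of the MAP kinase pathway. The other p38 genes did not move with it, as Mapk14 had 91.3 and 167 TPM in Nfib-floxed metastases and 88.0 and 92.1 TPM in RPR2 metastases. Ret and Mapk13 passed in all 4 fits that left out 1 metastasis.

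Channel genes rose too. Of 36 tested potassium channel genes in the list, 8 rose and 1 fell, with a median log2 difference of 0.79. Over all 53 tested genes with Kcn symbols, the rises and falls were the same and the median was 0.43. Kcnk16, a background potassium channel, had 49.2 and 51.9 TPM in Nfib-floxed metastases, against 1.11 and 1.5 TPM in RPR2 metastases. The channel-interacting proteins Kcnip1 (log2 difference 4.08 ± 0.52) and Kcnip2 (3.88 ± 0.39) rose, and Kcnj3, an inward rectifier opened by G proteins, fell to 0.109 and 0.144 TPM in Nfib-floxed metastases, against 20.6 and 26.0 TPM in RPR2 metastases. Of these 9 calls 5 held in every fit that left out 1 metastasis. Piezo2, a channel opened by stretch, had 125 and 177 TPM in Nfib-floxed metastases and 4.02 and 2.35 TPM in RPR2 metastases, and Ano9, an anoctamin, had 78.5 and 134 TPM in Nfib-floxed metastases and 1.01 and 1.32 TPM in RPR2 metastases. They were the 2 rises among 14 Piezo, anoctamin and TRP genes. None of 22 tested calcium and sodium channel genes passed.

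Other rises concerned 2 genes of the retinoid list and a blood protein. Aldh1a3, which makes retinoic acid, had 85.4 and 105 TPM in Nfib-floxed metastases, against 1.51 and 1.73 TPM in RPR2 metastases. Its call was lost without JHK1398 (adjusted p = 0.0548) and without JHK1394 (0.0581). Aldh1a7 had 366 and 335 TPM in Nfib-floxed metastases and 26.4 and 23.4 TPM in RPR2 metastases and held in all 4 fits, and they were the 2 calls among 16 retinoid genes. Vwf, the gene of von Willebrand factor, made by endothelial cells and platelets, had 332 and 1272 TPM in Nfib-floxed metastases and 16.8 and 19.8 TPM in RPR2 metastases. It was the single call among 13 general endothelial genes, while Pecam1 had 8.58 and 7.80 TPM in Nfib-floxed metastases and 8.21 and 8.89 TPM in RPR2 metastases and Cdh5 had 4.47 and 4.91 TPM in Nfib-floxed metastases and 6.06 and 6.60 TPM in RPR2 metastases.

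Oxygen and sugar genes were higher with few calls. Of 23 tested genes of the hypoxia response 3 rose, and Ankrd37, induced by low oxygen, had 122 and 183 TPM in Nfib-floxed metastases, against 18.2 and 15.2 TPM in RPR2 metastases. Vegfa, which drives vessel growth, had 227 and 203 TPM in Nfib-floxed metastases and 33.0 and 70.3 TPM in RPR2 metastases, and did not pass without JHK1398, JHK1399 or JHK1373 (adjusted p = 0.124, 0.0869 and 0.162). P4ha1, the third rise, passed in none of the 4 fits (0.0645 to 0.158). All 21 tested glycolysis genes had a positive log2 difference, with a median of 1.08, but only Aldoa and Pfkm passed. Aldoa did not pass without JHK1398 (adjusted p = 0.065) or JHK1394 (0.0973), and Pfkm passed in none of the 4 fits (0.121 to 0.188). Slc2a1, a glucose transporter of that list, had 2622 and 67.5 TPM in Nfib-floxed metastases and 24.3 and 29.0 TPM in RPR2 metastases, so it was far higher in the library of JHK1398 than in the other 3. The MHC class I list had a median of 1.29 with 19 of 20 members positive and no call, and H2-D1 had 1136 and 1925 TPM in Nfib-floxed metastases and 664 and 385 TPM in RPR2 metastases (adjusted p = 0.152).

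**Figure D2:**
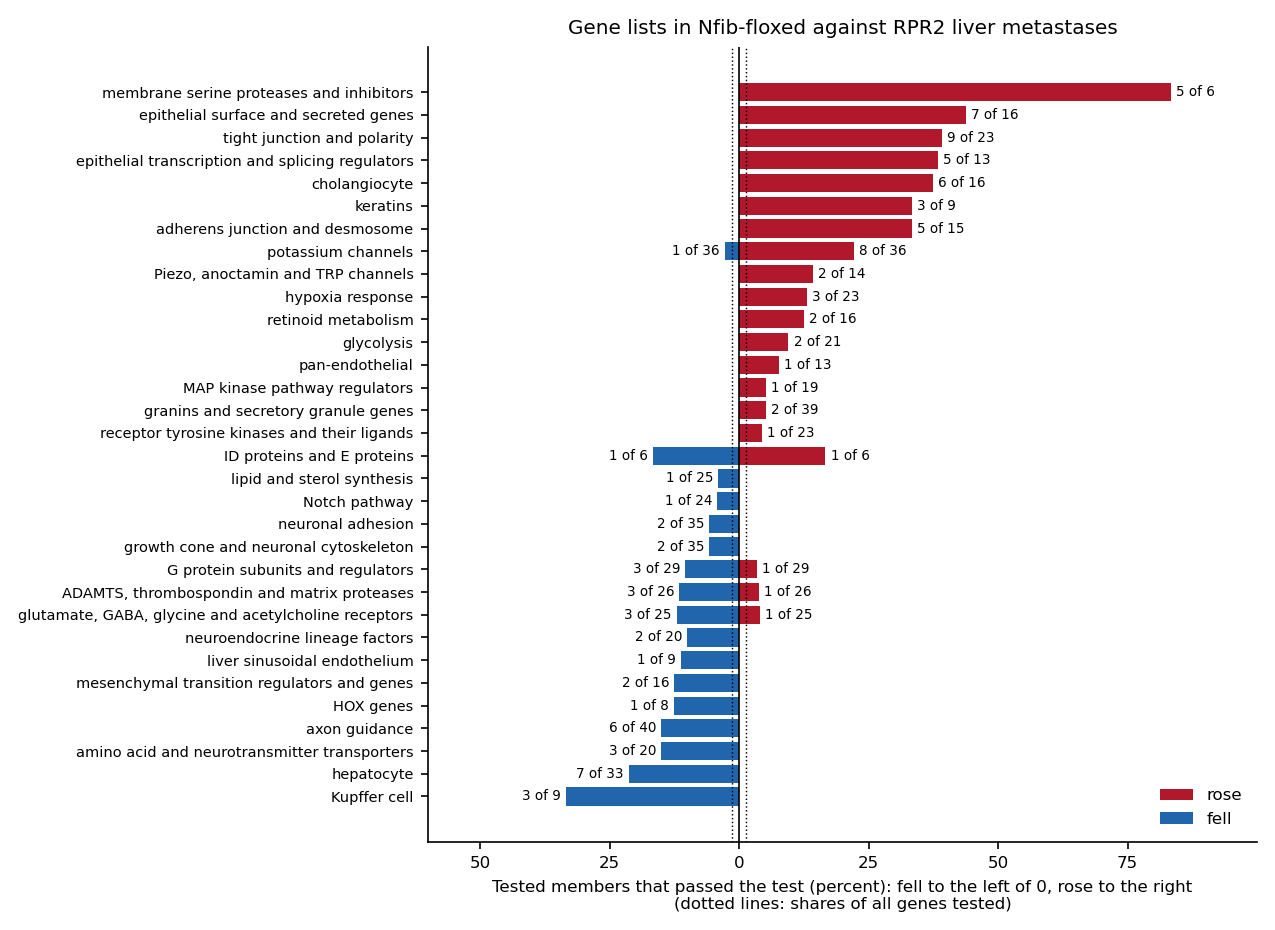
Percent of the tested members of each gene list that rose (red, right of 0) or fell (blue, left of 0) in Nfib-floxed against RPR2 metastases, for the lists with at least 1 call, with counts beside the bars. Dotted lines mark the shares of all genes tested, 1.33% up and 1.40% down. The membrane protease list, with 5 of 6, has the highest share of rises and the Kupffer cell list, with 3 of 9, the highest share of falls.

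The falls included neurogenic factors. Neurod4, a proneural bHLH factor on chr10:130268152-130280240, fell to 0.134 and 0.0941 TPM in Nfib-floxed metastases, against 24.2 and 38.3 TPM in RPR2 metastases. The log2 difference was -4.82 ± 0.54 (adjusted p = 0.00178). Isl2, a LIM homeobox factor of motor neurons, fell to 0.168 and 0.0723 TPM in Nfib-floxed metastases, against 5.17 and 5.08 TPM in RPR2 metastases. They were the 2 calls among 20 tested neuroendocrine lineage factors, and both held in all 4 fits that left out 1 metastasis. ID proteins hold bHLH factors off DNA. Id3 fell to 32.7 and 80.8 TPM in Nfib-floxed metastases, against 521 and 609 TPM in RPR2 metastases. Id1 and Id2 were also lower (log2 differences -1.82 and -2.59) but did not pass by limma (adjusted p = 0.125 and 0.134). Id4 alone went the other way and rose to 115 and 185 TPM in Nfib-floxed metastases, against 41.1 and 22 TPM in RPR2 metastases. Each ID call held in 1 of the 4 fits that left out 1 metastasis. Id3 did not pass without JHK1398, JHK1373 or JHK1394 (adjusted p = 0.098, 0.0626 and 0.0996), and Id4 did not pass without JHK1398, JHK1399 or JHK1394 (0.0549, 0.116 and 0.157).

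Axon guidance genes had 6 falls and no rise among 40 tested, with a median log2 difference of -0.84. Lingo1, a brake on axon growth, fell to 0.159 and 0.554 TPM in Nfib-floxed metastases, against 28.9 and 49.98 TPM in RPR2 metastases (log2 difference -4.86 ± 0.67, adjusted p = 0.00478). The ephrin receptor genes Epha5 and Epha7 fell, with Epha5 at 0.279 and 0.246 TPM in Nfib-floxed metastases and 11.3 and 15.6 TPM in RPR2 metastases. These 3 held in all 4 fits that left out 1 metastasis. Slit2, a repellent ligand, and Rgma, a repulsive guidance molecule, also fell. Slit2 did not pass without JHK1398 (adjusted p = 0.0789) or JHK1394 (0.0886), and Rgma did not pass without JHK1398 (0.0663) or JHK1373 (0.0607). Guidance genes were not all lower, as Robo1, a SLIT receptor, had 52.3 and 66.8 TPM in Nfib-floxed metastases and 29.0 and 8.30 TPM in RPR2 metastases and did not pass.

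Genes of the growth cone, neuronal adhesion and synaptic receptors had few but large falls. Gap43, a growth cone protein, fell to 4.0 and 0.195 TPM in Nfib-floxed metastases, against 30.3 and 34.1 TPM in RPR2 metastases, and did not pass without JHK1373 (adjusted p = 0.0551) or JHK1394 (0.0831). Dcx, the gene of doublecortin, fell to 0.122 and 0.0802 TPM in Nfib-floxed metastases, against 8.34 and 26.1 TPM in RPR2 metastases, and did not pass without JHK1398 (0.08), JHK1399 (0.0672) or JHK1394 (0.109). They were the 2 calls among 35 growth cone and cytoskeleton genes. Cntn6, a contactin of the neuronal surface, was listed at 0 and 0.0834 TPM in Nfib-floxed metastases, against 9.04 and 9.03 TPM in RPR2 metastases, and held in all 4 fits, whereas Pcdh10, the other call among 35 adhesion genes, held in none (adjusted p of 0.0903 to 0.11). Grik2, a kainate receptor gene on chr10:49094833-49788766, fell to 0.0667 and 0.0528 TPM in Nfib-floxed metastases, against 29.5 and 24.0 TPM in RPR2 metastases (log2 difference -4.70 ± 0.40, adjusted p = 0.000617). It was 1 of 3 falls and 1 rise among 25 receptor genes and held in all 4 fits that left out 1 metastasis, which Cacng7, Gabra4 and Grm4 did not (largest adjusted p of 0.198, 0.253 and 0.0607).

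Transporters, G proteins and matrix genes added to the falls. Slc6a15, a neutral amino acid transporter of neurons, fell to 0.375 and 0.178 TPM in Nfib-floxed metastases, against 44.0 TPM in each RPR2 metastasis. The log2 difference was -5.14 ± 0.49 (adjusted p = 0.000941). Gng4, a G protein gamma subunit, fell to 1.96 and 0.233 TPM in Nfib-floxed metastases, against 47.6 and 76.3 TPM in RPR2 metastases. Thbs4, the gene of thrombospondin 4, showed the largest fall, with 0.688 and 0.425 TPM in Nfib-floxed metastases, against 95.6 and 68.9 TPM in RPR2 metastases (log2 difference -5.73 ± 0.92, adjusted p = 0.0125). Its groups lay far apart, yet its call was lost without JHK1398, JHK1373 or JHK1394 (adjusted p = 0.0614, 0.0607 and 0.0592), and its lung tumors ranged from 1.36 to 25.1 TPM in Nfib-floxed and from 2.54 to 9.61 TPM in RPR2 mice. Adamts10, a matrix protease of the ADAMTS family, fell to 1.25 and 1.80 TPM in Nfib-floxed metastases, against 51.3 and 72.0 TPM in RPR2 metastases, and held in all 4 fits, as did Slc6a15 and Gng4.

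**Figure D3:**
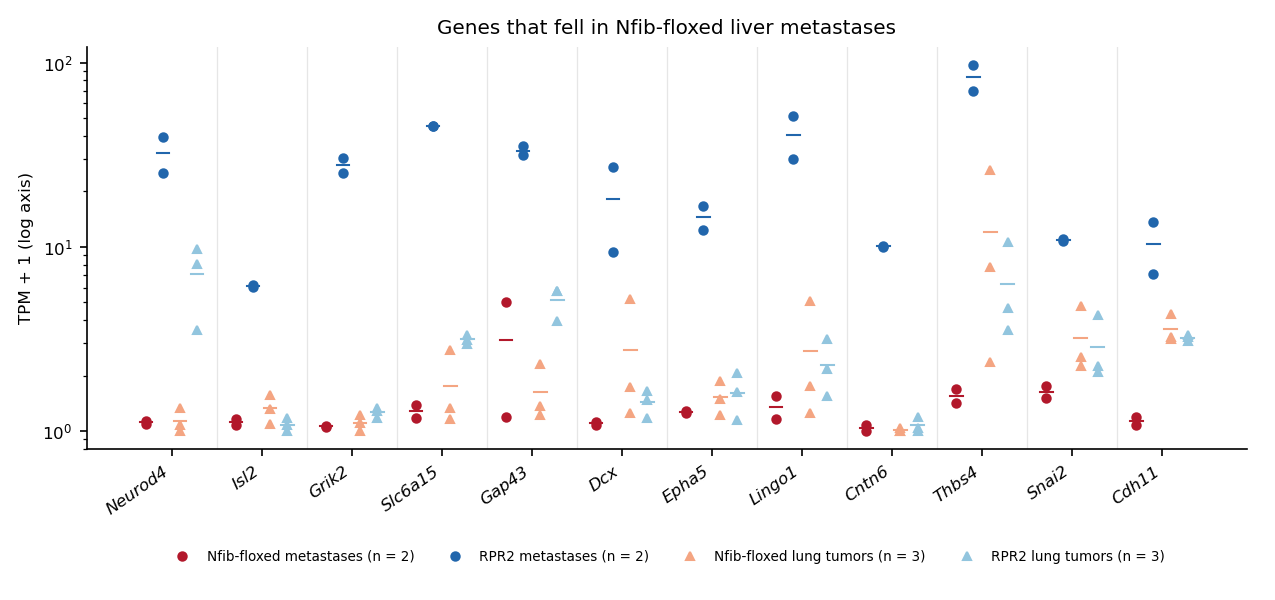
TPM + 1 per library on a log axis for 12 genes that fell, with points for libraries and short lines for group means, in the same colors and symbols as the plot of genes that rose. The RPR2 metastases lie above the other 8 libraries in all 12 genes, as for Grik2 at 29.5 and 24.0 TPM.

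Secretory genes of the neuroendocrine cell did not follow the neuronal falls. Of 39 tested granin and secretory granule genes, 31 had a positive log2 difference with a median of 0.91, 2 rose and none fell. Slc18a1, a monoamine transporter of granules, had 58.6 and 101 TPM in Nfib-floxed metastases and 8.45 and 2.28 TPM in RPR2 metastases, and Stx1a, a release protein, had 28.3 and 57.4 TPM in Nfib-floxed metastases and 5.32 and 1.73 TPM in RPR2 metastases. Both lost their calls without JHK1398, JHK1399 or JHK1394 (adjusted p of 0.0534 to 0.0996 for Slc18a1 and 0.0726 to 0.208 for Stx1a). No peptide hormone gene among 10 tested passed. Calca, the gene of calcitonin and CGRP, had 5470 and 57529 TPM in Nfib-floxed metastases and 545 and 1410 TPM in RPR2 metastases (log2 difference 4.34 ± 1.30, adjusted p = 0.123), and held 5.75% of all TPM in the library of JHK1399. Nor did any of 51 cell cycle, 10 MYC family, 31 WNT, 30 TGF-beta, BMP and hedgehog or 13 small cell lung cancer surface target genes pass. Dll3 of the last list had 26.9 and 14.8 TPM in Nfib-floxed metastases and 27.2 and 33.3 TPM in RPR2 metastases.

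Liver genes were lower, but their calls depended on single libraries. Of 33 tested hepatocyte genes 7 fell and none rose, with a median log2 difference of -3.70. Hpx, the gene of the plasma protein hemopexin, fell to 15.3 and 171 TPM in Nfib-floxed metastases, against 838 and 1009 TPM in RPR2 metastases. Alb, the gene of albumin, had 26.3 and 1159 TPM in Nfib-floxed metastases and 3760 and 3555 TPM in RPR2 metastases and did not pass (adjusted p = 0.127). The summed hepatocyte genes came to 227 and 4490 TPM in Nfib-floxed metastases and 14962 and 16344 TPM in RPR2 metastases, with by far the lowest sum in the metastasis of JHK1398. None of the 7 calls held without JHK1398, where the median was -1.84, or without JHK1373, 1 held without JHK1394, and all 7 held without JHK1399, where 27 hepatocyte genes fell. Kupffer cells are the macrophages of the liver, and 3 of their 9 genes fell, with summed levels of 14.4 and 19.4 TPM in Nfib-floxed metastases and 159.5 and 105.4 TPM in RPR2 metastases. Clec4f, their defining gene, fell to 1.36 and 5.28 TPM in Nfib-floxed metastases, against 23.1 and 24.9 TPM in RPR2 metastases, and of the 3 Kupffer calls none held without JHK1398, JHK1373 or JHK1394 and 2 held without JHK1399. In bulk tissue, fewer cells of a type and less RNA per cell cannot be told apart, and the part of liver cells in the other falls was not tested.

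**Figure D4:**
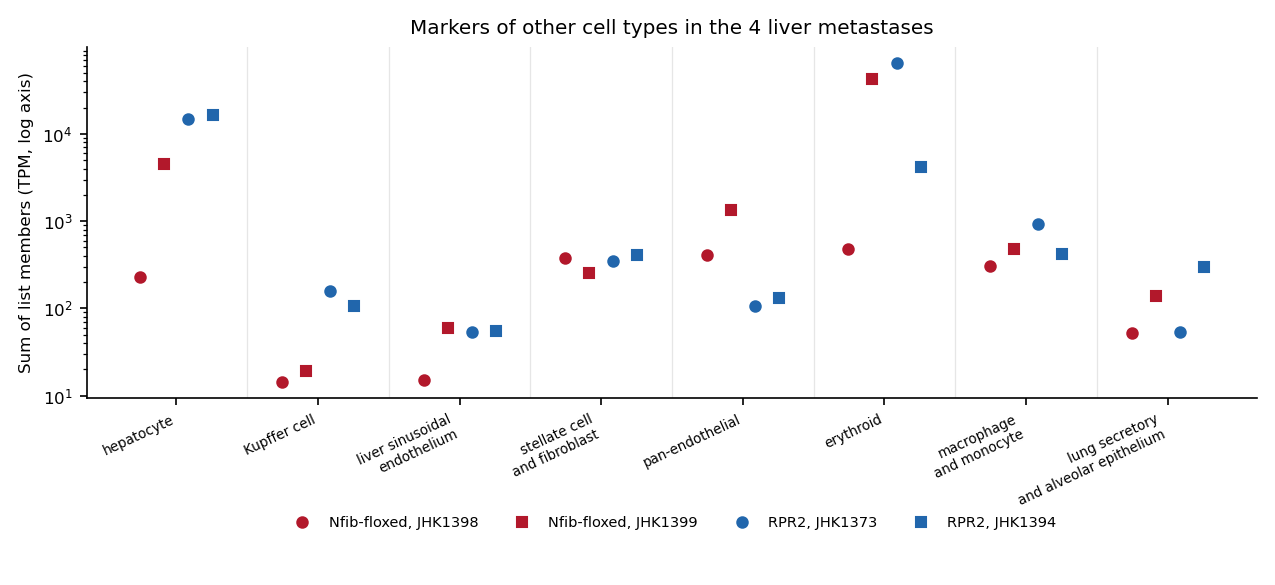
Summed TPM of 8 lists of other cell types on a log axis in each metastasis: Nfib-floxed in red (JHK1398 circles, JHK1399 squares) and RPR2 in blue (JHK1373 circles, JHK1394 squares). Hepatocyte and Kupffer cell sums are lower in both Nfib-floxed metastases, at 227 and 4490 TPM against 14962 and 16344 TPM for hepatocytes. The endothelial sum is carried by Vwf.

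Sums of other cell types overlapped between the genotypes in some lists and not in others. Erythroid genes summed to 480 and 42998 TPM in Nfib-floxed metastases and 64965 and 4145 TPM in RPR2 metastases, with 1 high library in each group. Lung secretory and alveolar genes summed to 52.8 and 137 TPM in Nfib-floxed metastases and 54.3 and 302 TPM in RPR2 metastases. Neutrophil genes did not overlap, with sums of 4.24 and 68.4 TPM in Nfib-floxed metastases and 77.1 and 96.2 TPM in RPR2 metastases. T and NK cell sums, at 8.90 and 11.8 TPM in Nfib-floxed metastases and 17.7 and 12.1 TPM in RPR2 metastases, were nearly level at their closest. Of their 4 tested genes, 2 had a positive and 2 a negative log2 difference. General macrophage sums overlapped, at 309 and 475 TPM in Nfib-floxed metastases and 923 and 417 TPM in RPR2 metastases. B cell sums overlapped too. The general endothelial sum was higher, at 411 and 1356 TPM in Nfib-floxed metastases against 107 and 130 TPM in RPR2 metastases. That sum was carried by Vwf, and 8 of the 13 tested genes of the list had a negative log2 difference (median -0.06). Stellate and fibroblast sums overlapped, but 11 of the 15 tested genes of that list were lower in both Nfib-floxed metastases than in either RPR2 metastasis, against 22.6% of all genes. The part of these cell types in the other differences was not tested. No gene of the erythroid, lung epithelial, stellate and fibroblast, general macrophage, neutrophil, T cell or B cell lists passed.

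Metastases and lung tumors were compared in how they differ by genotype. In the lung tumors no gene passed (0%), with a smallest adjusted p of 0.127 by limma and 1185 genes at an unadjusted p under 0.05, against 2094 in the metastases. The difference between the 2 tissues passed for 102 genes (0.685%), 78 of them (0.524%) more positive and 24 (0.161%) more negative in metastases. Of these, 99 were among the 406 genes called in the metastases, 75 rises and 24 falls. For Cdh1 the genotype difference was larger in metastases than in lung tumors by 5.99 ± 0.48 on the log2 scale (adjusted p = 0.000626), and lung tumors had 209 to 366 TPM in Nfib-floxed and 270 to 446 TPM in RPR2 mice. For Grik2 it was more negative by -4.51 ± 0.51 (adjusted p = 0.00586), with lung tumors at 0 to 0.223 TPM in Nfib-floxed and 0.179 to 0.328 TPM in RPR2 mice. Neurod4 had a different order, with lung tumors at 0 to 0.325 TPM in Nfib-floxed and 2.53 to 8.71 TPM in RPR2 mice, so the Nfib-floxed libraries of both tissues were low. Several other falls, such as Gap43, Kcnj3 and Slc6a15, likewise had every Nfib-floxed lung tumor below every RPR2 lung tumor. Kcnj3 had 0.0503 to 1.23 TPM in Nfib-floxed and 4.04 to 4.36 TPM in RPR2 lung tumors. The RPR2 metastases lay below all 8 other libraries for 196 of the 198 genes that rose (99%) and above them for 197 of the 208 that fell (94.7%), against 10.9% and 8.4% of all genes tested. The calls rest on these same libraries, so the counts describe and do not test.

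The single library of JHK1394 carried raised genes around Nfib. Nfib lies on chr4:82290173-82705750. Of 16 measured protein-coding neighbors, up to 8 on each side, 13 had at least 2 times the mean of the other 3 metastases in the RPR2 metastasis of JHK1394, with a median ratio of 2.69, against 10% of all genes and a median of 1.051. Psip1, a chromatin protein gene 0.973 Mb away, had 468 and 412 TPM in Nfib-floxed metastases, against 399 and 2392 TPM in RPR2 metastases. Of these neighbors Mpdz, a scaffold of tight junctions on the other side, was called as a fall, with 2.15 and 2.89 TPM in Nfib-floxed metastases, against 62.0 and 378 TPM in RPR2 metastases, and it held in all 4 fits. Ptprd, a receptor phosphatase of synapses, was the other fall among them, with 0.0682 and 0.217 TPM in Nfib-floxed metastases, against 5.39 and 26.5 TPM in RPR2 metastases, and lost its call without JHK1398, JHK1399 or JHK1394 (adjusted p = 0.166, 0.15 and 0.287). Cer1, a neighbor at 0.385 Mb, went the other way with 53.0 and 19.8 TPM in Nfib-floxed metastases and 15.8 and 7.42 TPM in RPR2 metastases. DNA copy number was not measured here.

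Mycl, also on chromosome 4, was high in 1 metastasis of each genotype. It had 981 and 31.6 TPM in Nfib-floxed metastases and 482 and 166 TPM in RPR2 metastases (adjusted p = 0.903). Its neighbors Cap1, with 5752 and 132 TPM in Nfib-floxed metastases and 2920 and 202 TPM in RPR2 metastases, and Trit1, with 1074 and 26.0 TPM in Nfib-floxed metastases and 645 and 43.4 TPM in RPR2 metastases, were high in the same 2 libraries. Of 30 neighbors, 3 had at least 5 times the mean of JHK1399 and JHK1394 in JHK1398, against 0.746% of all genes. In JHK1373 it was 8, against 1.19% of all genes. The median ratios of the neighbors were 0.98 and 1.10, and raised genes had unraised ones between them. The 8 included Ndufs5 at 6471 TPM and Pabpc4 at 2388 TPM. In the Nfib-floxed metastases Ndufs5 had 312 and 356 TPM and Pabpc4 62.6 and 36.3 TPM. How far the raised genes reached beyond these neighbors was not tested. Mycn had 3.89 and 6.98 TPM in Nfib-floxed metastases and 8.08 and 38.9 TPM in RPR2 metastases, and Myc was at most 8.71 TPM in all 4.

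**Figure D5:**
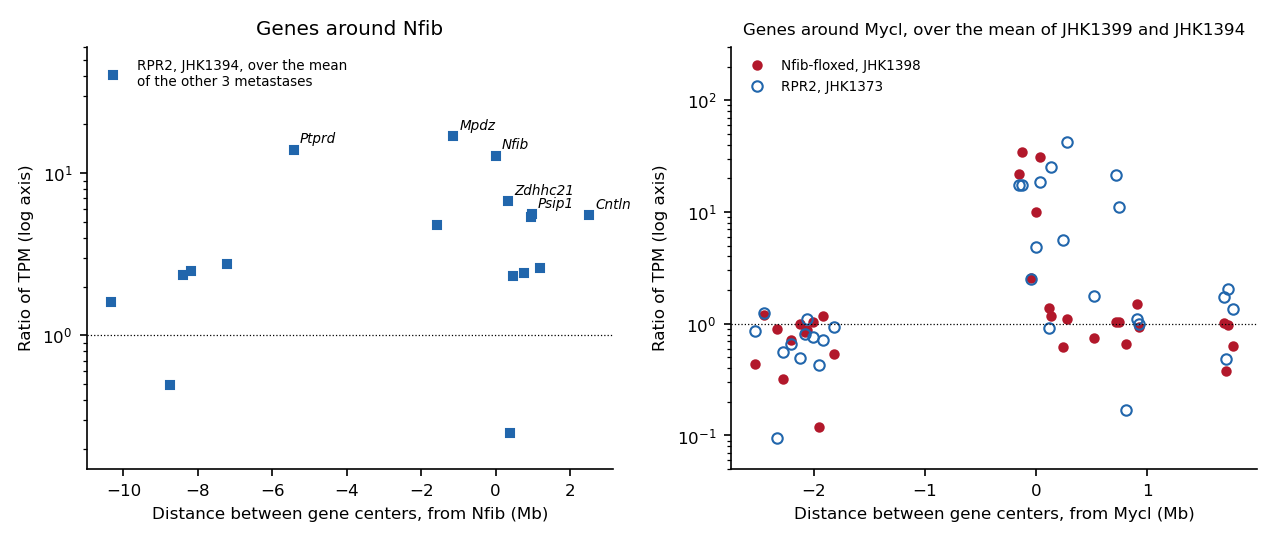
Left, the ratio of TPM in the RPR2 metastasis of JHK1394 to the mean of the other 3 metastases for Nfib and its 16 neighbors (blue squares), by distance between gene centers. Right, the ratio of TPM to the mean of the metastases of JHK1399 and JHK1394 for Mycl and 30 neighbors in the Nfib-floxed metastasis of JHK1398 (filled red) and the RPR2 metastasis of JHK1373 (open blue). Ratio axes are logarithmic and dotted lines mark equal levels. In the left panel 13 of 16 neighbors lie at 2 or above.

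The 2 metastases of a genotype also differed among themselves. Among genes with at least 20 TPM in the higher library, 4.07% differed at least 4-fold between the Nfib-floxed metastases, 266 of them higher in JHK1399 and 63 higher in JHK1398, and 2.99% between the RPR2 metastases, 162 higher in JHK1394 and 69 higher in JHK1373. Crabp1, a retinoic acid binding protein, had 1.81 and 827 TPM in the RPR2 metastases, and Hoxb9 had 1.5 and 337 TPM there, against 1.36 and 48.7 TPM for Crabp1 and 1.40 and 2.36 TPM for Hoxb9 in Nfib-floxed metastases. Hoxb8 next to Hoxb9 had 2.47 and 14.4 TPM in Nfib-floxed metastases, against 73.6 and 353 TPM in RPR2 metastases, and was the single call among 8 HOX genes, lost without JHK1398 (adjusted p = 0.144) or JHK1394 (0.194). Dusp26, a phosphatase of neuroendocrine cells, had 0.648 and 170 TPM in the Nfib-floxed metastases.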

How the data were processed

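Per the labels' protocols, tumors were macrodissected and snap-frozen, and libraries of polyA RNA were built with the NEBNext Ultra II kit. The submitters' processing notes name Salmon 0.12.0, bcl2fastq 2.20 and R 4.1.0 and the build GRCm38. Settings, annotation and strand are not stated in what was used here. The authors deposited gene-level TPM, whose total is 1000000 in every library, so depth is unknown and no counting interval is given. Salmon shares reads among similar transcripts, so genes with near-identical copies, and antisense partners, are uncertain.

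Groups and mice came from the labels. The lowest mean inside the filter was 1.0002 TPM and the highest outside it 0.99944 TPM. Tests were two-sided on log2(TPM + 1), by limma 3.58.1 under R 4.3.3 with moderated variances, a mean trend, 6 residual degrees of freedom and a prior of 4.53. The script was tested on simulated data. Python 3.11.15, pandas 2.3.3, numpy 2.4.6, scipy 1.17.1 and matplotlib 3.10.9 did the rest. Positions are from GENCODE M21, which held 35028 of the gene IDs. Where a symbol had several IDs, as Aldoa has, the most abundant was used.

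Members, the 53 gene lists (1297 symbols, 5 unmatched) and the named genes were chosen with earlier results of these data known. Named by rule were the 15 largest rises and falls with at least 5 TPM in the higher group, up to 5 calls per list or else its 2 highest genes, a fixed set and the neighbors of Nfib. Other list members and the Mycl neighbors were picked after their values were seen. Some genes are not reported here, though counts include them. Alternatives covered the pseudocount, filter, scaling, variance model, mouse effect and left-out libraries. Mouse numbers link lung tumors and metastases of the same animal but pair no metastases across genotypes. With mouse as a replicate block the estimated correlation was 0.054.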

Additional observations from a re-analysis of the deposited data

Results flagged for a closer look

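For 46 of the 95 named genes that passed in the metastases, the genotype difference there (Nfib-floxed minus RPR2, log2) differed from that in lung tumors by limma's interaction test, with adjusted p of 0.000626 to 0.0497. The values below, given for 45 of them, are the difference in metastases minus that in lung tumors. Among junction, polarity and keratin genes it was 5.99 for Cdh1, 4.40 for Dsp, 3.41 for Epcam, 5.53 for Cldn7, 5.24 for Ap1m2, 4.57 for Rab25, 4.55 for Krt7 and 3.16 for Krt8. Among epithelial regulators, proteases and their inhibitors it was 5.68 for Esrp1, 3.13 for Esrp2, 5.27 for Ehf, 5.04 for Tmprss4, 4.83 for St14, 3.57 for Prss8 and 4.91 for Spint1. Among surface and channel genes it was 6.40 for Tspan1, 4.68 for Tmem30b, 4.21 for Tmc4, 3.59 for Cdcp1, 5.54 for Ano9, 4.69 for Piezo2, 4.49 for Kcnk16, 4.09 for Kcnip2, 3.74 for Kcnk2 and 3.72 for Kcnip1. Among signaling, metabolic and secreted genes it was 5.78 for R3hdml, 5.62 for Mapk13, 5.60 for Ret, 5.67 for Aldh1a3, 5.02 for Aldh1a7, 5.22 for Slc18a1, 4.49 for Vwf, 3.04 for Id4 and 2.75 for Ankrd37. The excess was negative for the genes that fell, at -6.21 for Thbs4, -5.31 for Adamts10, -4.89 for Lingo1, -4.51 for Grik2, -4.19 for Slc6a15, -4.03 for Rps6ka6, -3.45 for Epha5, -3.27 for Cdh11, -3.19 for Cntn6, -3.05 for Epha7 and -2.73 for Isl2. Thbs4 lay nearest the threshold, with an SE of 1.19 and an adjusted p of 0.0497. Over all genes, 102 passed the interaction test, 49 without the Nfib-floxed metastasis of JHK1398 and 238 without that of JHK1399.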

How the results depend on the processing

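The metastasis comparison called 406 genes, 198 up and 208 down, and other settings gave 267 (88 down) at a filter of 5 TPM, 53 (33 up, 20 down) with the 4 metastases alone, and 72 (50 up, 22 down) against a minimum log2 change of 1. A pseudocount of 0.1 left 82 falls, and dropping the JHK1394 and JHK1398 lung tumors left 128 falls. Leaving out 1 metastasis gave 168 to 391 calls, 82 to 130 rises (96 without JHK1399, 108 without JHK1373) and 45 to 295 falls, with the fewest calls without RPR2 JHK1394 and the fewest falls without Nfib-floxed JHK1398. The difference between tissues called 102 genes, 24 without those 2 lung tumors, 20 at a minimum log2 change of 1, and 49 to 238 with 1 metastasis left out. The cause of these shifts was not tested, apart from fewer samples or genes. With mouse as a replicate block the counts were 407 and 107, and 94 of 95 named calls held. Rises were 48.8% of the calls, 72.2% at a pseudocount of 0.1 and 34% at 5, 35.1% without a filter and 67% at 5 TPM; quantile scaling gave 51.4% and median centring 47.4%. No named gene reversed, and 27 of 95 named calls held in every alternative that tested them. Depth cannot be judged from TPM.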

Other observations

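Several genes outside the lists and the naming rule also passed by limma in the metastases, and they are given as values picked after they were seen. Fscn1, the gene of the actin bundler fascin, fell to 6.39 and 5.23 TPM in the Nfib-floxed metastases, against 123 and 129 TPM in the RPR2 metastases (adjusted p = 0.00851). Dbn1, the gene of drebrin, an actin binder of dendrites, fell to 5.76 and 4.35 TPM in Nfib-floxed metastases, against 67.6 and 148 TPM in RPR2 metastases. Lhx3, a LIM homeobox factor of motor neurons like Isl2, fell to 0.0999 and 0.10 TPM in Nfib-floxed metastases, against 8.39 and 8.51 TPM in RPR2 metastases. Adgrl3, an adhesion receptor of synapses, fell to 0.121 and 0.129 TPM in Nfib-floxed metastases, against 8.39 and 18.4 TPM in RPR2 metastases. In all 4 genes, as in every fall that passed, both Nfib-floxed values lay below both RPR2 values.

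Among the rises, Scin, the gene of the actin-severing protein scinderin, had 62.9 and 44.4 TPM in Nfib-floxed metastases, against 1.27 and 1.45 TPM in RPR2 metastases (adjusted p = 0.00178). Slc6a20a, a proline transporter, had 19.7 and 42.5 TPM in Nfib-floxed metastases and 0.466 and 0.356 TPM in RPR2 metastases. Igf2, an imprinted growth factor gene, had 175 and 194 TPM in Nfib-floxed metastases and 2.78 and 45.8 TPM in RPR2 metastases, where its values were far apart (adjusted p = 0.0439).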
